A study of Mus musculus with 50 samples.

Results

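The 10 genes of interest were listed as genes of the two-cell stage of the mouse embryo: Eif1a, Tdpoz1, Tdpoz3, Tdpoz4, Zscan4c, Zscan4d, Zfp352, Usp17ld, Sp110 and Arg2. No embryo was measured here. They were looked up by symbol in a table of 16614 genes counted in single oocytes. Of these 10 genes, 7 had a row and are described here, and Tdpoz3, Tdpoz4 and Zfp352 were not analysed here. The oocytes came from conditional Zfp36l2 knockout mice (cKO) and, as controls, from floxed mice (F/F), in which the allele that can be deleted is present. There were 24 knockout oocytes from 4 mice, of which knockout mouse 1 gave 1 oocyte and the other mice 7 or 8, and 26 floxed oocytes from 4 mice that gave 5 to 7 each. All females were 5 weeks old, received 10 IU of PMSG, a gonadotrophin that makes follicles grow, and gave oocytes 46 h later. Oocytes at the germinal vesicle stage, enclosed in cumulus cells, were taken into M2 medium with 5 µM milrinone, an inhibitor that holds meiotic arrest, and the surrounding cells and zona pellucida were removed. The sources used here do not name the Cre line that deletes the allele.

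In the mouse the main wave of embryonic transcription starts in the two-cell embryo, and a set of genes is strongly and briefly transcribed there, among them Zscan4, Eif1a, Tdpoz and Usp17l genes. The transcription factor Dux binds the promoters of Zscan4 and other genes of this set, and embryonic stem cells that pass through a state resembling the two-cell embryo switch on the same genes. A fully grown oocyte is transcriptionally quiet and relies on stored mRNA, so the level of an mRNA there reflects earlier transcription and decay. ZFP36L2 binds RNA at AU-rich elements, mostly in 3′ untranslated regions, and directs the bound mRNA to decay.

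Promoter sequences are shown for 4 genes that form 2 pairs of close relatives, since the results below turn on these pairs. They are RefSeq promoters on GRCm38.p6, from 250 bases before to 50 bases after the annotated start, written 5′ to 3′ on the strand of the gene. Zscan4c lies at chr7:11005745-11010547 on the plus strand and Zscan4d at chr7:11161374-11166159 on the minus strand (GENCODE annotation of mm10). Their promoters are chr7:11005495-11005794 and chr7:11166099-11166398. Usp17ld lies at chr7:103249737-103252505 on the minus strand, and its promoter is chr7:103252456-103252755. The promoter of its relative Usp17lc is chr7:103416446-103416745, on the plus strand. Capitals mark TATAAA and a Dux-type motif, the letters TGATT and ATCA with 2 bases between them, each searched on both strands, and the matches of these motifs did not overlap.
Zscan4c: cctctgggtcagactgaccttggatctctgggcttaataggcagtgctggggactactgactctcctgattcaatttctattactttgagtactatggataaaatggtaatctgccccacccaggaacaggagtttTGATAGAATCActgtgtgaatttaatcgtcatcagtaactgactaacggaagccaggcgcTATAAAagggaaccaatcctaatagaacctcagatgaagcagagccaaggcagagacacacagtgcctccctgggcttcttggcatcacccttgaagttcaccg
Zscan4d: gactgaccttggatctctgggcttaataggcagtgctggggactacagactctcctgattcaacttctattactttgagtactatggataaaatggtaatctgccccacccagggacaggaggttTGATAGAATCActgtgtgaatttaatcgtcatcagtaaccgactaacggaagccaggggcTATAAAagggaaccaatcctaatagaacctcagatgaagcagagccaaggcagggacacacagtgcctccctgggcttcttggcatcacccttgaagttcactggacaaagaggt
Usp17ld: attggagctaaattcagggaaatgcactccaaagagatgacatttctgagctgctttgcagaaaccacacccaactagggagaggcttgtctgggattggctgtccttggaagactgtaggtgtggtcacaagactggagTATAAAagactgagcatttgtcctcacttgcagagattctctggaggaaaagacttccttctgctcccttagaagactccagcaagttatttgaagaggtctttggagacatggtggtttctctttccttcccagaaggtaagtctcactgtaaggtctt
Usp17lc: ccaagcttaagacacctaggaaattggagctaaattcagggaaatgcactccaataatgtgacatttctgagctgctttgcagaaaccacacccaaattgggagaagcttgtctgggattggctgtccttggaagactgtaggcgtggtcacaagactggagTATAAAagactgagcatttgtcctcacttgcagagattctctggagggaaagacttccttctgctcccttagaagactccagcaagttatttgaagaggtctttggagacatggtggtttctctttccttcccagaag

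The Dux-type motif was found in the promoters of Zscan4c and Zscan4d, on the strand opposite to the gene, from base -114 to -104 in Zscan4c and from base -125 to -115 in Zscan4d, counted from the start at 0. The promoters of Zscan4b and Zscan4f held it as well. Among all 32851 RefSeq promoters of this length, 68 (0.207%) held it. TATAAA was found in the promoters of Zscan4c, Zscan4d, Usp17ld and Usp17lc, against 13.6% of all promoters. Neither motif was found in the listed promoters of Tdpoz1 or Sp110. Aligned end to end, with gaps counted as differences, the Zscan4c and Zscan4d promoters matched in 281 of 311 columns (90.4%). The Usp17ld and Usp17lc promoters matched in 269 of 322 columns (83.5%). The windows of each pair are offset, with TATAAA from base -110 in Usp17ld and from base -88 in Usp17lc. Gaps at the ends lower both values, so they do not rank the pairs by divergence. A match of letters describes the sequence and is not a measured binding site.

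The remaining genes lie apart from each other, and each annotated locus is protein-coding. Tdpoz1 is at chr3:93669333-93676310 on the minus strand, Sp110 at chr1:85576899-85598817 on the minus strand, Arg2 at chr12:79130777-79156301 on the plus strand and Eif1a at chr18:46597701-46616456 on the plus strand. How far reads could be shared with other genes was measured as the share of 50-base words of its transcript that occur in a transcript of any other annotated gene. This share was 85.5% for Zscan4c, 51.1% for Usp17ld, 49.6% for Zscan4d, 45.1% for Tdpoz1, 43.9% for Sp110, 4.05% for Eif1a and 0% for Arg2. How reads that map to several genes were counted is not stated, so values of the Zscan4, Usp17l, Tdpoz and Sp110 genes may be split or summed between copies. The 7-base AU-rich core UAUUUAU was not found in the annotated 3′ untranslated region of any of the 7 genes. It was present in 27.7% of the 13803 tested genes with such a region, and in 7.84% of those of a length like that of Arg2 (270 bases) up to 40.2% of those of a length like that of Eif1a (2077 bases).

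The total count per oocyte was 4332108 to 6233840 in knockout oocytes (median 5211210) and 1746007 to 6120317 in floxed oocytes (median 4761241). Levels are given as CPM, the counts of a gene in an oocyte, or in all oocytes of a mouse, scaled to a total of 1000000. Zfp36l2 itself had 2.77, 1.61, 2.56 and 1.06 CPM in the 4 knockout mice and 3.51, 1.96, 4.17 and 3.44 CPM in the 4 floxed mice. These groups overlapped (log2 fold change -0.78 ± 0.43 SE, edgeR quasi-likelihood adjusted p = 0.208). A count over the whole gene can include transcripts that lack the deleted part, so it does not check the labels. Oocyte markers summed to 7507 to 8726 CPM per knockout mouse and 7357 to 9124 CPM per floxed mouse. Of 21 tested, 2 rose, the germ cell helicase Ddx4 (log2 fold change 0.94) and the transcription factor Figla (0.70), and 1 fell, the meiotic kinase Mos (-0.32), with a median of -0.12. Cumulus and granulosa markers summed to 633 to 799 CPM in knockout mice and 660 to 705 CPM in floxed mice. Most of each sum came from Esr2 (196 to 241 CPM per mouse), Serpine2 (159 to 324) and Cyp19a1 (60.5 to 101). The sum thus says little of the other markers. Of 22 tested, none rose and 1 fell, the steroidogenic enzyme Cyp11a1, which had 0, 0, 0.135 and 0 CPM in knockout mice and 1.85, 3.797, 6.73 and 3.13 CPM in floxed mice, with a list median of 0.18. Cyp11a1 passed the filter on low counts through the floxed mice alone, so that its call is a description. The 6 tested blood and immune markers had no call and summed to 3.23 to 9.06 CPM in knockout mice and 7.81 to 16.4 CPM in floxed mice. For comparison with these 3 lists, 27.6% of all genes tested were called, 14.4% higher and 13.2% lower in knockout mice.

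The 7 genes did not move one way. Eif1a, Tdpoz1 and Usp17ld rose in knockout oocytes, Zscan4c, Zscan4d and Sp110 fell, and Arg2 did not pass the test. In this comparison of 4 knockout with 4 floxed mice, the counts were summed over the oocytes of each mouse and tested with edgeR across 15029 genes, and a gene was called at a Benjamini-Hochberg adjusted p under 0.05. Called genes made up 27.6% of all genes tested, 14.4% higher and 13.2% lower in knockout mice, against 6 of the 7 genes, 3 higher and 3 lower. For 5 of the 7 genes the values of the 4 knockout and 4 floxed mice did not overlap, against 31% of all genes tested. The median log2 fold change of the 7 was -0.18, and that of all genes tested was -0.01. Without floxed mouse 2, or without floxed mouse 4, 0 of the 7 genes passed the test as lower. Lower genes over all genes also became fewer, 1343 of 15423 and 1219 of 15403 in these fits, against 1984 of 15029. The count of 3 higher held without any 1 of the 8 mice, where 1359 to 2538 of all genes were higher.

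Expressed per kilobase of transcript, so that genes can be set side by side, the levels in knockout mice were in the order Arg2 (166 ± 5.02 CPM per kb), Sp110 (148 ± 9.63), Eif1a (8.79 ± 1.94), Zscan4d (7.98 ± 2.25), Zscan4c (4.49 ± 0.835), Tdpoz1 (3.44 ± 0.704) and Usp17ld (3.02 ± 2.21; SD, n = 4 mice). In floxed mice the order was Arg2 (183 ± 12.8 CPM per kb), Sp110 (177 ± 10.6), Zscan4d (15.1 ± 5.00), Zscan4c (7.67 ± 1.13), Eif1a (1.14 ± 0.663), Tdpoz1 (0.706 ± 0.200) and Usp17ld (0.138 ± 0.145; SD, n = 4 mice). Neighbours whose ranges of 1 SD overlapped were, in knockout mice, Eif1a with Zscan4d, Zscan4c with Tdpoz1, and Tdpoz1 with Usp17ld, and in floxed mice, Arg2 with Sp110 and Eif1a with Tdpoz1. Sp110 and Arg2 were thus abundant mRNAs of these oocytes, at percentiles 98 and 99 of all genes in knockout mice and 99 for both in floxed mice. Eif1a was at percentile 54 in knockout mice and 29 in floxed mice, and Usp17ld at percentile 39 in knockout mice and 10 in floxed mice.

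**Figure D1:**
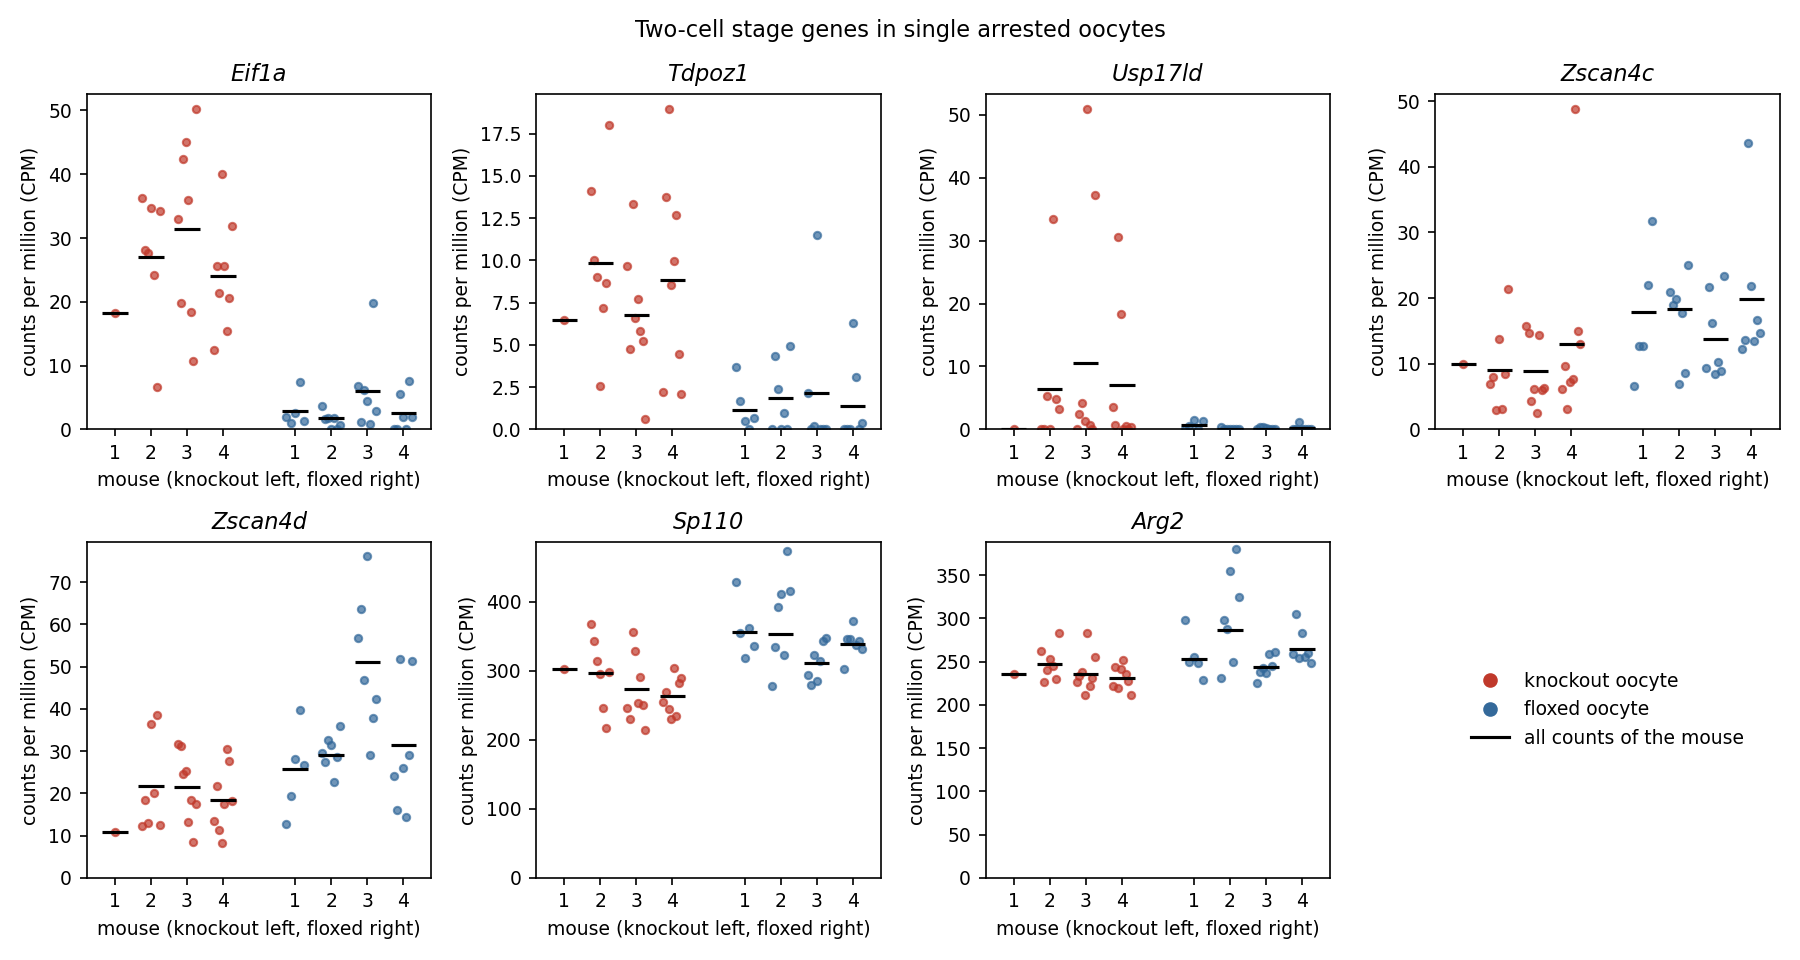
Level of each of the 7 genes in single oocytes, in CPM (linear axis from 0), by mouse, with the 4 knockout mice on the left and the 4 floxed mice on the right. Points are oocytes and black bars the level over all counts of a mouse; the bars for Eif1a lie between 18.2 and 31.5 CPM in knockout mice and between 1.76 and 6.05 CPM in floxed mice, and Usp17ld is high in few knockout oocytes.

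Eif1a encodes eukaryotic translation initiation factor 1A, which helps the small ribosomal subunit to scan an mRNA for its start codon. It had 18.2, 27.0, 31.5 and 24.0 CPM in knockout mice 1 to 4, against 2.80, 1.76, 6.05 and 2.51 CPM in floxed mice 1 to 4. All 4 knockout mice lay above all 4 floxed mice. Its log2 fold change was 2.90 ± 0.40 (SE), or 7.45-fold, with an adjusted p of 0.00130 in edgeR. All 24 knockout oocytes had Eif1a counts, from 35 to 281 with a median of 133.5, and 21 of 26 floxed oocytes had them, from 0 to 103 with a median of 7.5. With 10 or more counts required, 24 of 24 knockout and 11 of 26 floxed oocytes had Eif1a. In CPM, 17 of 24 knockout oocytes were above the highest floxed oocyte (19.8 CPM, in floxed mouse 3), and all 24 were above the floxed median of 1.82 CPM. Thinned to 3000000 counts per oocyte, which left out 3 shallower floxed oocytes, 24 of 24 knockout and 20 of 23 floxed oocytes had at least 1 count.

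The factor has relatives elsewhere in the genome. Several genes whose transcripts share 50-base words with Eif1a were in the table. Gm5039 shared 2.41% of the Eif1a words and had 28.2, 26.7, 26.5 and 31.0 CPM in knockout mice, against 4.71, 3.55, 6.91 and 5.18 CPM in floxed mice (log2 fold change 2.42 ± 0.25 SE, edgeR adjusted p = 0.000349). Gm5662, which shared 1.24%, rose by a log2 fold change of 1.99 ± 0.46 (adjusted p = 0.0118). BB287469, which shared 2.17%, had a log2 fold change of 3.34 ± 0.67 (adjusted p = 0.00622), but it passed the filter on low counts through the knockout mice, where it is high, since 1 of 4 floxed mice reached the filter's 0.301 CPM. Gm2016, Gm8300 and Gm2022 had log2 fold changes of 1.19, 1.06 and 0.84 and did not pass the test. The X-linked paralogue Eif1ax, which encodes a closely related initiation factor, had 149 ± 23.3 CPM in knockout mice and 152 ± 35.8 CPM in floxed mice (SD, n = 4 each), with a log2 fold change of -0.07 and a 95% interval from -0.45 to 0.32. Eif1 and Eif1b, which encode the start-codon selection factor eIF1 and its relative, had log2 fold changes of 0.03 and 0.00, with intervals from -0.30 to 0.36 and from -0.33 to 0.33. Between oocytes of the same mouse, Eif1a and Gm5039 had a Spearman correlation of -0.185 over 49 oocytes.

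**Figure D2:**
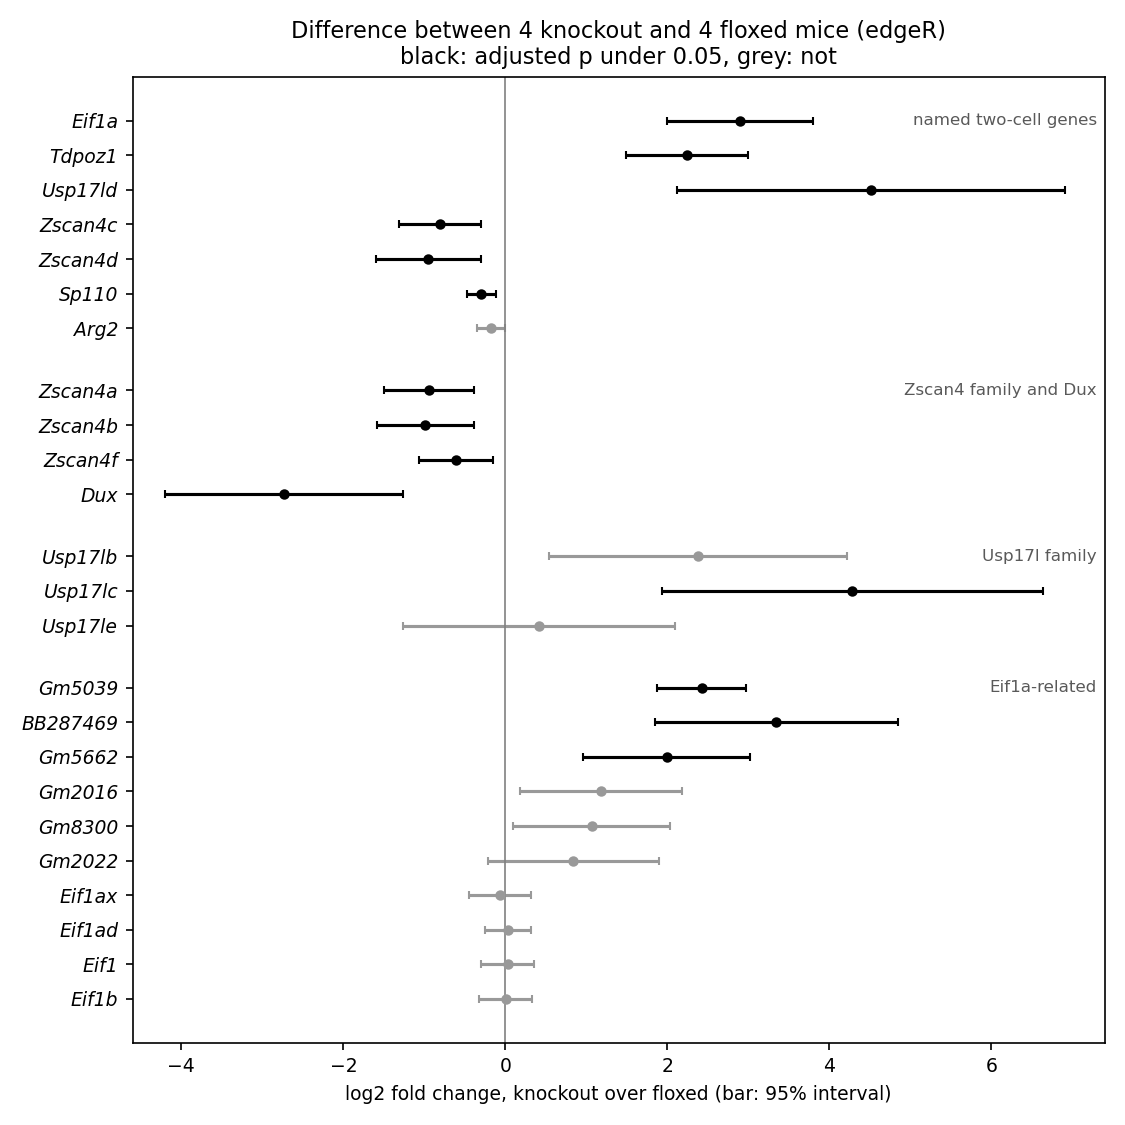
Log2 fold change of knockout over floxed mice (points) with 95% intervals (bars) for the 7 genes, the Zscan4 family with Dux, the Usp17l family and genes related to Eif1a, from edgeR on counts summed per mouse (n = 4 each). Black marks an adjusted p under 0.05; the 3 highest of the 7 genes lie at 2.24 to 4.51, while Zscan4 genes lie at -0.99 to -0.61 and Dux at -2.73.

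Tdpoz1 encodes a protein with a TRAF and a POZ domain, of a mouse family known from oocytes and early embryos. It had 6.46, 9.85, 6.76 and 8.85 CPM in knockout mice 1 to 4, against 1.15, 1.88, 2.16 and 1.36 CPM in floxed mice 1 to 4. The groups did not overlap. This gave a log2 fold change of 2.24 ± 0.34 (SE), or 4.73-fold (edgeR adjusted p = 0.00176). Restricted to oocytes of 5000000 to 6000000 counts, 12 from 3 knockout mice and 9 from 3 floxed mice, it was 5.25 (edgeR adjusted p = 0.000662). This range was chosen after seeing the data. Its 9 floxed oocytes had at most 5 Tdpoz1 counts each, and it left out the floxed oocyte with 69 counts, so the larger value rests on a level near 0. All 24 knockout oocytes and 14 of 26 floxed oocytes had at least 1 count of Tdpoz1, and 23 of 24 and 7 of 26 had 10 or more. The counts ranged from 3 to 110 in knockout oocytes (median 42) and from 0 to 69 in floxed oocytes (median 1.5). The floxed total rested on few cells: 5 oocytes held 73.5% of the 196 floxed counts, against 38.1% of 1042 knockout counts.

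Counts of Tdpoz1 may be partly shared with a neighbour in sequence. Gm9125, whose transcript held 40.7% of the 50-base words of Tdpoz1, had 10.2, 11.7, 6.52 and 8.96 CPM in knockout mice and 1.75, 2.08, 1.67 and 0.930 CPM in floxed mice (log2 fold change 2.50 ± 0.35 SE, edgeR adjusted p = 0.00139). Summed over oocytes, both genes had close to equal counts, with 0.935 Tdpoz1 counts per Gm9125 count in knockout oocytes and 1.09 in floxed oocytes. Tdpoz1 made up 21.4% to 78.0% of the 2 genes' counts in the 23 knockout oocytes that had 20 or more of them. The correlation of the 2 genes over 49 oocytes was 0.745 after the mouse mean was subtracted. Gm10696, which shared 0.088% of the words, had a log2 fold change of 0.93 (adjusted p = 0.407). A row that joins Gm10697 and Tdpoz5 went the other way, with 0, 0.467, 0.742 and 0.423 CPM in knockout mice and 1.30, 1.47, 0.965 and 0.899 CPM in floxed mice.

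Usp17ld encodes a deubiquitinase of the DUB/USP17 family, enzymes that remove ubiquitin from proteins. It was the most uneven of the 7 genes. Its summed counts were 0, 220, 469 and 298 in knockout mice 1 to 4, against 14, 2, 5 and 6 in floxed mice 1 to 4, or 0, 6.43, 10.5 and 7.01 CPM against 0.701, 0.0816, 0.130 and 0.186 CPM. Knockout mouse 1, whose single oocyte had no count of Usp17ld (3 counts in it would be 0.693 CPM), lay below the floxed mice, and the other 3 knockout mice lay far above them. The log2 fold change was 4.51 ± 1.07 (SE; 95% interval 2.12 to 6.91; edgeR adjusted p = 0.0133). The gene passed the filter on low counts, which needs 0.301 CPM in 4 mice, through these 3 knockout mice and floxed mouse 1. Weighting oocytes equally, as the mean log2(CPM + 1) per mouse in limma, gave a difference of 1.13 and an adjusted p of 0.0639.

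At the level of cells, 16 of 24 knockout oocytes and 8 of 26 floxed oocytes had at least 1 Usp17ld count. Counts of 10 or more were found in 11 of 24 knockout oocytes and in 0 of 26 floxed oocytes, which allows a share of up to 11.5% if oocytes of 1 mouse are taken as independent, which they may not be. The highest floxed count was 6, and the highest knockout count was 238. Of 987 Usp17ld counts in knockout oocytes, 844 (85.5%) came from 5 oocytes, which belonged to knockout mice 2, 3 and 4. The same oocytes were high in Usp17lc, a gene whose transcript holds 50.4% of the 50-base words of Usp17ld and lies in the same cluster on chromosome 7. Usp17lc summed to 0, 493, 876 and 571 counts in knockout mice and 28, 7, 21 and 8 in floxed mice (log2 fold change 4.29 ± 1.05 SE, edgeR adjusted p = 0.0156, and 0.0812 with oocytes weighted equally). Its call was also lost without floxed mouse 2 (adjusted p = 0.0549) and without floxed mouse 4 (0.0504). Usp17ld made up 23.0% to 47.7% of the 2 genes' counts in the 12 knockout oocytes that had 20 or more of them. The correlation over 49 oocytes was 0.959, and many of these oocytes had no count of either gene. Of the other family members, Usp17lb had a log2 fold change of 2.38 (adjusted p = 0.0568) and Usp17le of 0.41 (adjusted p = 0.724).

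**Figure D3:**
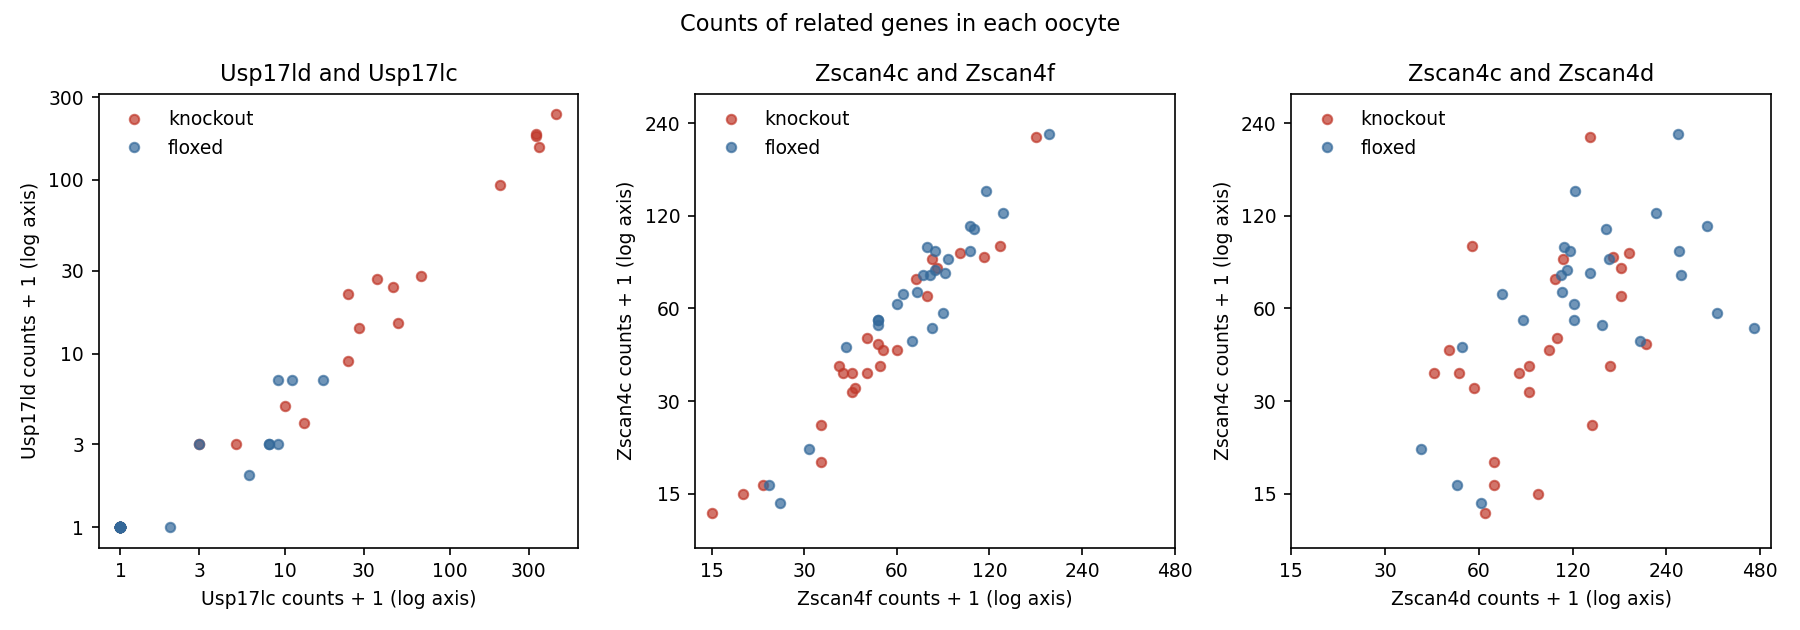
Counts of related genes in single oocytes, each plus 1 on log axes, for Usp17ld against Usp17lc, Zscan4c against Zscan4f and Zscan4c against Zscan4d; red points are 24 knockout and blue points 26 floxed oocytes. Zscan4c and Zscan4f lie along a line in both genotypes (correlation 0.947 within mice, over both genotypes), while Zscan4c and Zscan4d scatter widely (0.447). Usp17ld and Usp17lc lie along a line in knockout oocytes (0.959 over both genotypes). Floxed oocytes had at most 6 Usp17ld and 16 Usp17lc counts, too few to show a line.

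Zscan4c and Zscan4d encode SCAN-domain zinc finger proteins of the two-cell embryo, known in embryonic stem cells for their part in telomere maintenance. Unlike the genes above they were found in every oocyte of both genotypes, with 10 or more counts in all 24 knockout and all 26 floxed oocytes. Zscan4c had 9.93, 9.03, 8.92 and 12.99 CPM in knockout mice 1 to 4, against 17.9, 18.3, 13.8 and 19.8 CPM in floxed mice 1 to 4. Every knockout mouse lay below every floxed mouse. The log2 fold change was -0.81 ± 0.23 (SE), or 0.57-fold (edgeR adjusted p = 0.0260). The call was lost without knockout mouse 2 (adjusted p = 0.0652), knockout mouse 3 (0.0658), floxed mouse 2 (0.0674) or floxed mouse 4 (0.0799). Of the 24 knockout oocytes, 21 were below the floxed median of 15.4 CPM, 9 were below the lowest floxed oocyte at 6.67 CPM, and 1, in knockout mouse 4, was above the highest floxed oocyte, with 48.8 CPM. Knockout oocytes were also more uneven within a mouse, with a coefficient of variation of 59.96% to 106% in 3 knockout mice and 39.6% to 57.2% in 4 floxed mice; this spread includes counting error, and its difference was not tested.

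Zscan4d had 10.8, 21.9, 21.5 and 18.3 CPM in knockout mice 1 to 4, against 25.9, 29.1, 51.1 and 31.5 CPM in floxed mice 1 to 4. The groups did not overlap. Knockout mouse 1, a single oocyte, was lowest, and floxed mouse 3 was highest. The log2 fold change was -0.95 ± 0.29 (SE), or 0.517-fold (edgeR adjusted p = 0.0359). It was lost without knockout mouse 4 (adjusted p = 0.0617), floxed mouse 2 (0.0605), floxed mouse 3 (0.0967) or floxed mouse 4 (0.0705). Among single oocytes, 19 of 24 knockout oocytes lay below the floxed median of 29.4 CPM and 6 lay below the lowest floxed oocyte, at 12.7 CPM.

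The rest of the Zscan4 cluster in the table gave values of the same sign. Zscan4a had 5.08, 8.44, 7.44 and 8.00 CPM in knockout mice and 11.4, 16.1, 14.0 and 13.05 CPM in floxed mice, and Zscan4b had 5.08, 8.62, 7.46 and 7.76 CPM in knockout mice and 11.4, 18.8, 13.5 and 12.6 CPM in floxed mice. Their log2 fold changes were -0.94 ± 0.25 and -0.99 ± 0.27 (SE; edgeR adjusted p = 0.0207 and 0.0226). Zscan4f had 12.2, 11.5, 9.39 and 13.5 CPM in knockout mice and 16.8, 18.4, 16.1 and 18.0 CPM in floxed mice, a log2 fold change of -0.61 ± 0.20 close to the threshold (adjusted p = 0.0491, and 0.0544 with no filter on low counts). Leaving out 1 mouse ended the call of Zscan4a without floxed mouse 2, 3 or 4 (adjusted p from 0.0511 to 0.0638), of Zscan4b without knockout mouse 3 or floxed mouse 2 (0.0527 to 0.0712), and of Zscan4f without any mouse other than knockout mouse 1 (0.0508 to 0.122). These genes share much of their sequence: 65.3% of the Zscan4c words occur in Zscan4f, 50.8% in Zscan4a and 36.6% in Zscan4d, so the 5 rows are not 5 independent measurements. Dux, named here after its values were seen, encodes the homeodomain factor that binds Zscan4 promoters. It summed to 0, 5, 12 and 5 counts in knockout mice and 22, 35, 36 and 25 counts in floxed mice (log2 fold change -2.73 ± 0.66 SE, adjusted p = 0.0140). It passed the filter on low counts through the floxed mice alone, where it is high, so that its call is given as a description. Its low count and the repeated copies of this gene leave its level uncertain.

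Sp110 encodes an interferon-inducible nuclear body protein. It had 302, 297, 273 and 264 CPM in knockout mice 1 to 4, against 356, 354, 312 and 339 CPM in floxed mice 1 to 4. The groups did not overlap, and lay closest in knockout mouse 1 and floxed mouse 3. The log2 fold change was small, -0.30 ± 0.08 (SE), or 0.814-fold (edgeR adjusted p = 0.0208), and the call was lost without floxed mouse 2 (adjusted p = 0.0564) or floxed mouse 4 (0.0582). All 24 knockout oocytes had 1039 counts or more and all 26 floxed oocytes 781 or more. In CPM, 12 of 24 knockout oocytes were below the lowest floxed oocyte (277 CPM). As raw counts, the mean of the mouse means was 1421 per knockout oocyte and 1481 per floxed oocyte, a gap smaller than that in CPM. The counts grew less than in proportion to the total count in floxed oocytes, with a slope of log2 count on log2 total of 0.646, and with a slope of 1.02 in knockout oocytes. Within oocytes of 5000000 to 6000000 counts the log2 fold change was -0.28 (adjusted p = 0.01).

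Arg2 encodes the mitochondrial arginase, which splits arginine into ornithine and urea. It had 236, 248, 236 and 231 CPM in knockout mice 1 to 4, against 253, 286, 243 and 264 CPM in floxed mice 1 to 4. Knockout mouse 2 lay above floxed mouse 3, so that the groups overlapped. The log2 fold change was -0.18 ± 0.08 (SE; 95% interval -0.35 to -0.01) and did not pass the test (edgeR adjusted p = 0.115); without mouse 1 of both genotypes the adjusted p was 0.0495. It had the lowest mean coefficient of variation of the 7 genes in both genotypes, with a coefficient of variation between oocytes of a mouse of 6.02% to 9.45% in 3 knockout mice and 5.23% to 17.7% in 4 floxed mice. As raw counts, the mean of the mouse means was 1192 per knockout oocyte and 1140 per floxed oocyte, so that the sign differed from that in CPM. The slope of log2 count on log2 total was 0.469 in knockout oocytes and 0.613 in floxed oocytes. Within oocytes of 5000000 to 6000000 counts, a range chosen after seeing the data, the log2 fold change was -0.17 (edgeR adjusted p = 0.0515). Without oocytes under 3000000 counts it was -0.14 (edgeR adjusted p = 0.154). The part of depth in the values of Sp110 and Arg2 was otherwise not tested.

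Sp110 and Arg2 were also set beside genes of their pathways. Of 17 tested interferon-stimulated genes, 3 were higher and 4 lower in knockout mice, with a median log2 fold change of 0.24, where 14.4% of all genes tested were higher and 13.2% lower. Gbp3, a guanylate-binding protein, rose by 1.80, and the nuclear body genes Pml and Sp140 by 0.87 and 0.36. Ifitm3, a membrane protein that restricts viral entry, fell by 2.03, the antiviral effector Ifit1 by 0.97 and the RNA sensor Ddx58 by 0.72. Of 21 tested genes of arginine and polyamine metabolism, 3 were higher and 3 lower, shares close to those over all genes, with a median of 0.03. Sat1, which acetylates spermidine and spermine, rose by 0.99, the ornithine aminotransferase Oat by 0.53, and the antizyme Oaz2 by 0.30. Aldh18a1, which makes the proline and ornithine precursor, fell by 2.38, the arginine transporter Slc7a1 by 2.09 and the nitric oxide synthase Nos1 by 0.87. All of these are log2 fold changes with an edgeR adjusted p under 0.05. Some calls were lost when 1 mouse was left out. That of Pml was lost without knockout mouse 1, 2 or 4 or floxed mouse 2 or 4 (adjusted p from 0.0519 to 0.0877). Those of Sp140 (0.0639 to 0.207) and Oaz2 (0.101 to 0.173) were lost without any 1 mouse other than floxed mouse 1.

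Of 77 other listed genes of the two-cell embryo, 54 had a row and 51 were tested. Of these, 7 were higher and 11 lower in knockout mice, with a median log2 fold change of 0.14, beside 14.4% higher and 13.2% lower over all genes tested. These counts include BB287469 and Dux, which passed the filter on low counts through the group where they are high. Rfpl4b, of the ret finger protein-like family, had 14.3, 17.2, 14.4 and 10.8 CPM in knockout mice, against 1.30, 0.653, 0.652 and 0.372 CPM in floxed mice (log2 fold change 4.24 ± 0.41 SE, edgeR adjusted p = 0.000294). The homeobox gene Obox3 had 13.9, 15.02, 19.6 and 19.8 CPM in knockout mice, against 3.41, 4.16, 3.57 and 3.47 CPM in floxed mice (2.19 ± 0.24, adjusted p = 0.000434). For both genes all knockout mice lay above all floxed mice. The others called higher were Gm5039, BB287469 and Gm5662, described above with Eif1a, Usp17lc, and Gm12794 (3.68 ± 0.74, adjusted p = 0.00669). Of those that fell, the zinc finger gene Zfp936 had 114 ± 13.7 CPM in knockout mice and 186 ± 12.8 CPM in floxed mice (SD, n = 4 each), and Ddit4l, an inhibitor of mTOR signalling, had 0.654 ± 0.347 CPM in knockout mice and 3.30 ± 0.616 CPM in floxed mice. D5Ertd577e and E330021D16Rik fell by 0.67 and 0.38 on the log2 scale. The remaining genes called lower were Dux, Zscan4a, Zscan4b, Zscan4f, the antiproliferative gene Btg2, the deubiquitinase gene Usp26 and Dppa1. Gm12794, Usp17lc and these last 7 genes were named after their values were seen. The number of higher genes was 11 without knockout mouse 1, and the number of lower genes was 5 without floxed mouse 2, 6 without floxed mouse 3 or 4, and 7 without knockout mouse 3. Over all genes, 2538 were higher without knockout mouse 1, against 2164 in the main fit. Lower genes over all were 1343, 1420 and 1219 without floxed mouse 2, 3 and 4, and 1642 without knockout mouse 3, against 1984.

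Of 50 genes that encode known regulators of the two-cell programme, all tested, 13 were higher and 1 was lower in knockout mice, and the median log2 fold change was 0.05. Of all genes tested, 27.6% were called, 14.4% higher and 13.2% lower, so that the share of regulators called in either direction was close to the background. In this fit the split was not, since more regulators were higher and fewer were lower than these shares. Without mouse 1 of both genotypes, 15 regulators were higher and 10 were lower, where 3182 and 3549 of all 15332 genes tested were. The share of lower regulators was then close to that over all genes. The histone H3.3 chaperone Daxx had 169 ± 11.7 CPM in knockout mice and 74.0 ± 6.60 CPM in floxed mice (SD, n = 4 each; log2 fold change 1.15 ± 0.10 SE, edgeR adjusted p = 0.000191). Tet2, which oxidises 5-methylcytosine, rose by 1.83, the deacetylase Sirt1 by 1.80 and Mga, a DNA-binding partner of Max in a Polycomb complex, by 1.21. The histone H3 lysine 9 methyltransferase Ehmt2, named after its values were seen, rose by 2.61. Tet1, a second 5-methylcytosine oxidase, was the lower one, with 4.90 ± 2.71 CPM in knockout mice and 29.9 ± 7.93 CPM in floxed mice (-2.61 ± 0.40, adjusted p = 0.00205). Without knockout mouse 2, or without knockout mouse 3, 8 of the 50 were higher, beside 1359 of 15282 and 1374 of 15232 genes tested. Without knockout mouse 1, 3 regulators were lower, and without floxed mouse 1, 4 were lower. Over all genes, 2822 of 15454 and 2521 of 15381 were lower in these fits. Relatives and paralogues of the 7 genes, a list that holds Usp17lc and Sp140, gave 4 higher and 2 lower of 19 tested, with a median of 0.03. They included Zscan22, whose 10.9 ± 6.87 CPM in knockout mice stood against 1.05 ± 0.457 CPM in floxed mice (log2 fold change 3.35 ± 0.71 SE, adjusted p = 0.00799), Zscan20 (0.56), Zscan26 (-1.37) and Zscan12 (-0.48). The call of Zscan20 was lost without any 1 mouse other than knockout mouse 1 (adjusted p from 0.0521 to 0.125), that of Zscan26 without knockout mouse 2 or 4 or floxed mouse 3 or 4 (0.0642 to 0.105), and that of Zscan12 without knockout mouse 3 or floxed mouse 2, 3 or 4 (0.0526 to 0.0968).

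Between oocytes, the 7 genes did not show 1 common pattern of correlation. Spearman correlations of log2(CPM + 1), after the mean of each mouse was subtracted, were computed for the 21 pairs over 49 oocytes of 7 mice. They ranged from -0.414 (Usp17ld with Sp110) to 0.447 (Zscan4c with Zscan4d), and share the library and its depth. Eif1a and Tdpoz1, which both rose, had -0.019, Eif1a and Usp17ld 0.044, and Tdpoz1 and Usp17ld -0.033. Low counts can weaken such correlations. Usp17ld had 0 counts in 8 of 24 knockout and 18 of 26 floxed oocytes, and Tdpoz1 in 12 of 26 floxed oocytes. Whether these genes share a programme was not tested. Within 23 knockout oocytes Usp17ld and Zscan4c had -0.564, and within 26 floxed oocytes, where Usp17ld had at most 6 counts, 0.378. Sp110 and Arg2 had -0.118 within knockout oocytes and 0.709 within floxed oocytes, whose library totals spread more widely. The genes most like each of the 6 genes detected in 25 oocytes or more were sought among the 9691 genes whose mean was at least 10 CPM. The highest of so many correlations over 49 oocytes can be high by chance, and this was not tested. The cut also left out Gm9125, which had 0.745 with Tdpoz1. Zscan4c was most like Zscan4f (0.947), Zscan4a (0.777) and Zscan4b (0.650), and Zscan4d was most like St7 (0.518), Zscan4f (0.513) and Mast3 (0.506). Eif1a was most like the nuclear noncoding RNA Malat1 (0.746), Clp1 (0.710), which encodes an RNA kinase, and Plcb1 (0.693). Of these, Malat1 and Clp1 also rose in knockout mice, by 2.04 and 2.76 on the log2 scale, and Plcb1 did not pass the test (0.30, edgeR adjusted p = 0.390). Tdpoz1 was most like Pcna (0.532), Fam71d (0.465) and Tex14 (0.460), Sp110 most like Cpa1 (0.774), C130026I21Rik (0.649) and A530032D15Rik (0.646), and Arg2 most like Mphosph6 (0.894), Dppa3 (0.890) and Bpgm (0.886). C130026I21Rik, which shares 3.69% of the words of Sp110, and A530032D15Rik rose in knockout mice, by 0.37 and 0.40 on the log2 scale, while Sp110 fell.

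**Figure D4:**
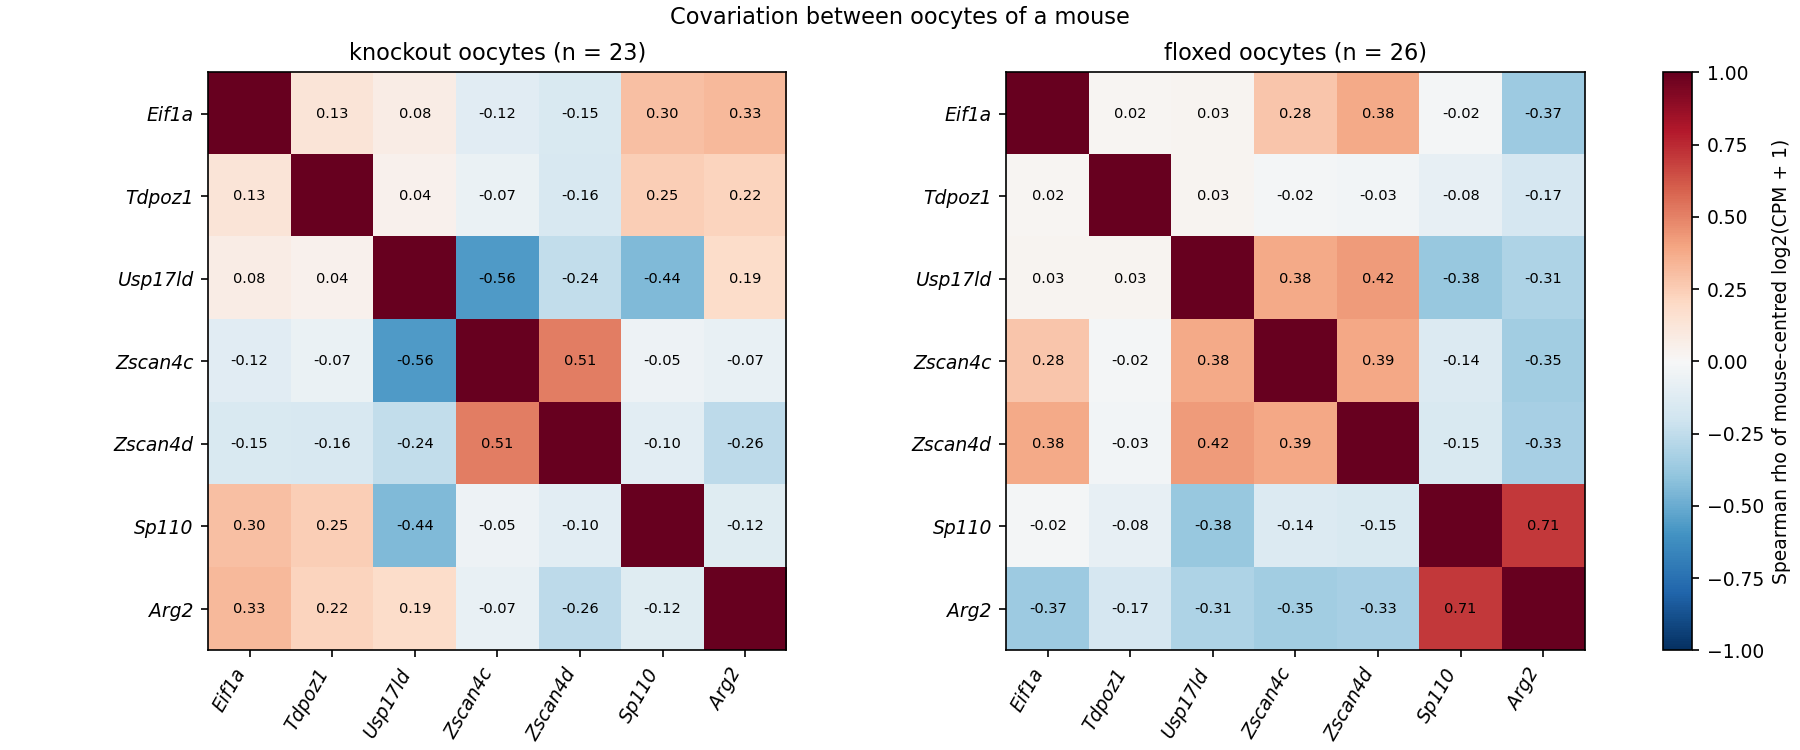
Spearman correlation of mouse-centred log2(CPM + 1) between the 7 genes over 23 knockout oocytes (left) and 26 floxed oocytes (right), in colour from -1 to 1 with the value in each cell. Zscan4c and Zscan4d are positive in both genotypes, Sp110 with Arg2 is at -0.118 in knockout and 0.709 in floxed oocytes, and Usp17ld with Zscan4c is at -0.564 in knockout and 0.378 in floxed oocytes.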

How the data were processed

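For 50 single-oocyte libraries, the authors deposited 1 table of whole read counts of 16614 genes, with no normalization. Per the labels, Trizol RNA was amplified as cDNA (SMARTer Ultra Low Input v3), with no molecular identifiers named, so floors cover counting error only. The 95% intervals of log2 fold changes come from edgeR on counts summed per mouse and include variation between mice. STAR and mm10 are named in the submitters' processing notes; how reads were counted, shared reads and strand included, is not stated there. Even numbers made up 61.5% of counts from 1 to 20.

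Groups and mouse numbers came from the sample titles. All 150 pairs of oocytes of a mouse differed by more than sampling noise (chi-square per degree of freedom 5.39 to 28.25). Counts of the oocytes of a mouse were summed and tested in R 4.3.3 with edgeR 4.0.16 (TMM, filterByExpr with a minimum count of 10, robust quasi-likelihood test, Benjamini-Hochberg adjusted p under 0.05), which kept 15029 genes; the biological coefficient of variation was 35.4%. The mice are the replicates; whether they came from different litters is not given. DESeq2 1.42.0, limma 3.58.1 and the other alternatives are in the closing section. Detection, levels and correlations of single oocytes are descriptions, computed in Python 3.11.15, with no test.

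The genes and lists were chosen with earlier results of these data known. Named were all 7 genes with a row, in each other list at most 4 called genes per direction, by p, and the 3 genes most alike per gene; close copies were added for their shared sequence, and genes said to be named after their values were seen are exceptions. Rows were matched to GENCODE annotation of mm10 by accession (16350) or symbol (186), and 78 were not. Sequences of promoters are from RefSeq (GRCm38.p6). The values of 1 called gene of the interferon list are not reported here.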

Additional observations from a re-analysis of the deposited data

Results flagged for a closer look

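Within the 4 mice of a genotype, 1 mouse stood apart from the other 3 in 5 of 84 groups of values examined, and chance gives about 1 in 20. Oat had 78.7 CPM in floxed mouse 3, against 67.5 to 68.3 CPM in the other floxed mice. Mos had 284 CPM in knockout mouse 1, which is a single oocyte, against 249 to 251 CPM in the other knockout mice. Usp17ld had 0.701 CPM in floxed mouse 1 (14 counts), against 0.0816 to 0.186 CPM in the other floxed mice. BB287469 had 0.327 CPM in floxed mouse 2, against 0.130 to 0.155 CPM in the others. Cyp11a1 had 0.135 CPM in knockout mouse 3 and 0 CPM in the other knockout mice.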

How the results depend on the processing

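The sign of each of the 7 log2 fold changes was the same under all 16 alternatives, and Eif1a and Tdpoz1 passed the test under each. Ranges were 2.41 to 3.38 for Eif1a, 2.07 to 5.25 for Tdpoz1, 1.13 to 5.77 for Usp17ld, -1.38 to -0.74 for Zscan4c, -1.10 to -0.70 for Zscan4d, -0.37 to -0.26 for Sp110 and -0.25 to -0.13 for Arg2. Leaving out 1 mouse at a time gave 0 to 3 of the 7 genes lower, 6 to 11 other two-cell genes higher and 5 to 12 lower, and 8 to 14 regulators higher and 1 to 4 lower. Over all genes, the same fits gave 1359 to 2538 higher and 1219 to 2822 lower. With DESeq2, 11 other two-cell genes were higher, where 2700 of all 15029 genes tested were. Without mouse 1 of both genotypes, 15 other two-cell genes were higher and 10 regulators were lower, against 7 and 1. With the mouse number as a replicate block 3 regulators were lower, and the block changed no call among the 7 genes. Same-numbered mice had correlations of 0.50, 0.03, 0.40 and 0.29, and mice of unlike number had correlations from -0.44 to 0.34. The main fit did not take the numbers as pairs. Whether mice with the same number belong together is not given. In oocytes of 5000000 to 6000000 counts, an alternative chosen after seeing the data, 4 regulators were lower, where 2801 of all 14499 genes tested were. The causes were not tested. Over all genes, the higher and lower counts were 2164 and 1984, against 2876 and 2947 with the block, 3182 and 3549 without mouse 1 of both genotypes, 1359 and 1556 without knockout mouse 2, 1374 and 1642 without knockout mouse 3, and 1509 and 1219 without floxed mouse 4. Knockout mouse 1 is 1 oocyte, and 3 floxed oocytes have under 3000000 counts.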
